A study of Homo sapiens with 4 samples.

Results

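The PPARGC1A locus on chromosome 4 was examined for accessible chromatin in A375 cells, an established human melanoma line, by ATAC-seq, an assay in which the transposase Tn5 inserts sequencing adapters into exposed DNA. In RefSeq (GRCh38.p14) the gene spans chr4:23792021-24472905, 680.9 kb, and is read from the higher coordinate to the lower. Its members are the regions of the authors' deposited table that overlap this span extended by 10 kb on both sides, which gave 40 of 125986 regions. A wider set, the regions that overlap PPARGC1A or have it as the nearest protein-coding gene, held 60, so 20 lay outside the extended span. The gene was chosen by the log2 fold changes of these regions in an earlier pass over the same table, where they lowered the median of a list of fatty acid genes, and its fold changes are therefore given as a description with no test.

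The 2 groups were A375 cells given 1 mM octanoate for 48 h (2 libraries) and A375 cells given the vehicle isopropanol for 48 h (2 libraries). Octanoate is a medium-chain fatty acid. Both groups were the same line grown in DMEM with 10% serum, and the labels do not say whether the libraries came from separate cultures, so the authors' errors measure the spread between these libraries. The deposited table gives 1 mean over the 4 libraries and 1 comparison, so values are printed per region and not per library. Of the melanocytic markers with a start in the RefSeq promoter table, MITF and DCT had an open region there and MLANA, TYR and TYRP1 did not. The undifferentiated melanoma markers AXL, EGFR and JUN each had one, as did KRT8 of epithelium and PDGFRA of fibroblasts, while PTPRC, ITGAM, ALB and ADIPOQ, markers of blood, liver and fat, had none. An open start is not a measure of expression.

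PPARGC1A encodes PGC-1alpha, a transcriptional coactivator that docks on nuclear receptors and other transcription factors and raises the output of genes for mitochondrial biogenesis, respiration and fatty acid oxidation. In the pigment cell lineage the gene is known as a target of MITF, the basic helix-loop-helix factor of melanocytes, which binds E-boxes such as CACGTG and CATGTG. CREB, which acts through the element TGACGTCA or its shorter form TGACG, is a known activator of the gene in liver and muscle.

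RefSeq lists 2 starts for the gene with a promoter window, 591.8 kb apart, and an open region covered each start, so these windows are shown as the sequences that the accessibility data bear on. Each runs from 250 bases before the start to 50 bases after it, on the minus strand, at chr4:24472856-24473155 for the distal start and chr4:23881052-23881351 for the proximal start. Capitals mark matches on either strand to CACGTG, to CATGTG and to TGACG.
Distal PPARGC1A start: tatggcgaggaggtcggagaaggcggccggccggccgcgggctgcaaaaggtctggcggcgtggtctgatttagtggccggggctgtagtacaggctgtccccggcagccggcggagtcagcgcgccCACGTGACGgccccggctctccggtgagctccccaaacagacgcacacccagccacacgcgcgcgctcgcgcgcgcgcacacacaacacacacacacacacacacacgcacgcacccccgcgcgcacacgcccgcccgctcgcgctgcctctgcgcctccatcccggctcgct
Proximal PPARGC1A start: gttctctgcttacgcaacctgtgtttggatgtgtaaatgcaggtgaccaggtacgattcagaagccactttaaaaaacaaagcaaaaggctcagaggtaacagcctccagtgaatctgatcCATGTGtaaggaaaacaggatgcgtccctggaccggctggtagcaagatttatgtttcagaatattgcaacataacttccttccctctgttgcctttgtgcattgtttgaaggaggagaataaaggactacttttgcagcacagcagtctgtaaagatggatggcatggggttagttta

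The windows differ in composition. The distal window was 72% G and C with 42 CpG dinucleotides, and the proximal window 44% with 4, against medians of 58.7% and 14 over the 35116 RefSeq promoter windows. The distal window holds CACGTG at -123 from the start and, overlapping it, TGACG at -119. In the proximal window CATGTG lies at -129. CACGTG occurred in 7.26% of all windows, CATGTG in 11.1% and TGACG in 24.6%. The GC box GGGCGG, found in 45.0% of windows, matched at 8 in the distal window, on either strand, and not in the proximal one. The remaining motifs searched on both strands, TGACGTCA (1.85% of windows), the AP-1 element TGACTCA (4.95%), the nuclear receptor half-site AGGTCA (13.8%) and the ERR element TCAAGGTCA (0.353%), had no match in these windows. TGACGTCA holds TGACG within it, and TCAAGGTCA holds AGGTCA. A match describes letters and no binding.

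Accessibility along the gene was uneven, and by read count, not scaled by width, it was highest at the distal start. In the authors' deposited table the region over the distal start, chr4:24472454-24473736, had a mean of 75.9 normalized reads, the highest of the 40. Its neighbour just inside the gene, chr4:24469998-24471639, came second with a mean of 53.6 in the authors' deposited table. The region at the distal start also overlaps a noncoding RefSeq gene on the other side of that start, LOC124900681, so its signal is not the signal of PPARGC1A alone. Among the 13007 regions that overlap a promoter window, 61.5% had a lower mean than the distal region, whereas 6.47% had a lower mean than the region over the proximal start. That proximal region, chr4:23880945-23881260, was 316 bp wide and had a mean of 9.31 in the authors' deposited table, under the median of 12.2 over all nuclear regions. The region with the most reads near the proximal start lay 7.76 kb before it, at chr4:23888314-23889399, with a mean of 30.2 in the authors' deposited table. It is wider, 1086 bp, and per kb of width it had 27.8 normalized reads, beside 29.4 in the region over the proximal start and 40.6 in chr4:23877619-23878106. Further upstream, 9.38 kb before the start, chr4:23889970-23890986 had a mean of 18.9 in the authors' deposited table. Whether these upstream regions lie at another start of the gene, without a window in the promoter table, was not analysed here.

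**Figure D1:**
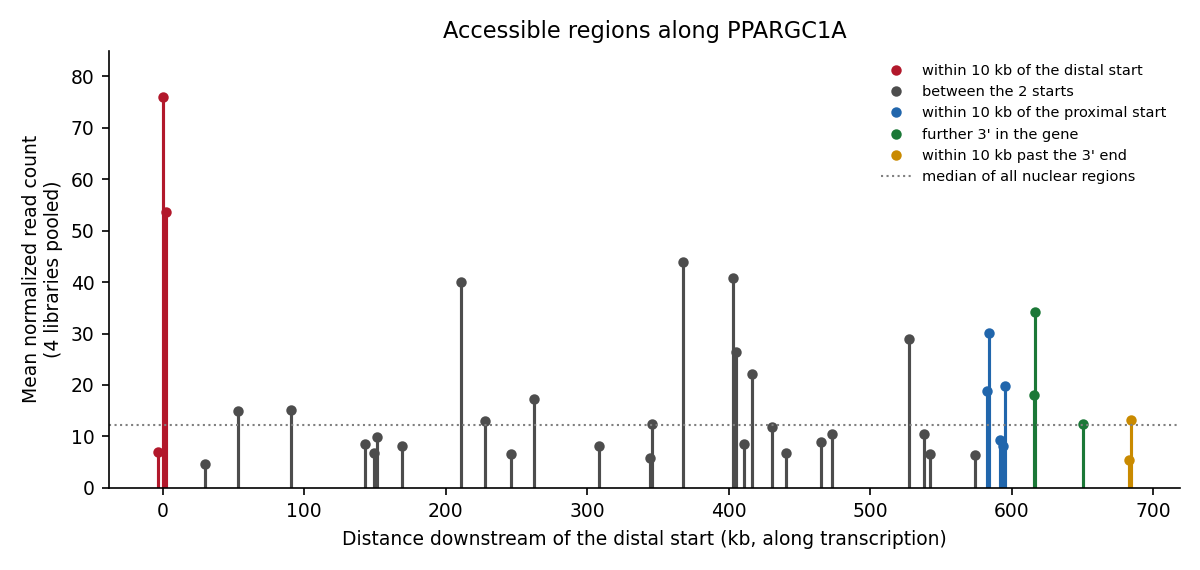
Mean normalized read count over the 4 libraries (vertical axis) of each of the 40 regions by distance downstream of the distal start in kb (horizontal axis), coloured by position in the gene. The tallest line, 75.9, stands at the distal start, while the region over the proximal start reaches 9.31, below the dotted line at the median of all nuclear regions, 12.2.

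Of the 40 regions 27 lay between the 2 starts, 5 within 10 kb of the proximal start, 3 within 10 kb of the distal start, 3 further 3' within the gene and 2 past its 3' end. The locus held 57.1 regions per Mb, against 39.4 per Mb over chromosome 4. Neighbouring regions were a median of 13.7 kb apart, and the longest stretch with none was 53.6 kb. Apart from these starts, the regions with the most reads were in the long stretch between them. They were chr4:24104362-24106135 (mean 43.9), chr4:24070028-24070631 (mean 40.7) and chr4:24261023-24263021 (mean 40.0) in the authors' deposited table. With the pair at the distal start these 3 held 35.8% of the summed signal of the locus. Scaled by width the order changed. Per kb chr4:24070028-24070631 had 67.4 normalized reads and the distal start region 59.2, followed by chr4:23856104-23856701 in the 3' part with 57.2 and chr4:24067783-24068282 with 53.0. The other pair between the starts, 1774 and 1999 bp wide, had at most 24.8 per kb. The locus as a whole was close to the genome in strength and width, with a median mean of 12.2 normalized reads and a median width of 427 bp, against 12.2 and 437 bp over all nuclear regions. Whether a region lies in an exon, an intron or a UTR was not analysed here.

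How many reads stand behind these means could be recovered. Each mean, multiplied by 4, is a sum of whole reads times 4 fixed steps, 0.413, 0.431, 0.434 and 0.512 normalized reads. A step is what 1 read counts for in 1 of the libraries once the authors had scaled it. For 21 of the 40 regions 1 set of whole reads fits, and these rest on 42 to 112 reads over the 4 libraries, with a median of 73 and with 8 to 39 reads in a library. The weakest region, chr4:24443325-24443525, rests on 8, 8, 10 and 16 reads in the 4 libraries in rising order. At chr4:24126698-24127124, the deepest of the 21, the reads were 22, 24, 27 and 39. The titles give each library's group, but neither they nor the authors' deposited table say which of the 4 steps, and so which of these read numbers, belongs to which library. No comparison was therefore made from these reads. The distal start region rests on 620 to 714 reads in all. In 19 of the 40 regions fewer than 100 reads were counted over all 4 libraries.

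At the starts the deposited log2 fold changes of octanoate over vehicle were each smaller in size than their standard errors. The distal start region stood at 0.12 (log2, standard error 0.24) in the authors' deposited table, which corresponds to implied group means of 72.8 normalized reads with vehicle and 79.1 with octanoate. It was the 1 member that the authors adjusted p over, with an adjusted p of 0.851 (DESeq2, Benjamini-Hochberg). The neighbouring region within the gene had -0.11 (standard error 0.29), and the weak region upstream of the distal start, chr4:24476235-24476578, had 0.07 (standard error 0.83) in the authors' deposited table. At the proximal start the log2 fold change was 0.44 with a standard error of 0.72, and at the region 7.76 kb upstream -0.17 with a standard error of 0.38, in the authors' deposited table. Over the 5 regions around the proximal start the median was -0.08, with values from -0.17 to 0.44. All 8 regions around the starts lay within 1 standard error of 0, as did 94078 of all 125985 nuclear regions.

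No member had an adjusted p under 0.05 in the authors' deposited table, where only 1 of the 40 was adjusted over. Of the regions that the authors adjusted p over, 114 of 11185, 1.02%, had an adjusted p under 0.05, and 0 of the 1 member adjusted over did. At an unadjusted p under 0.05, 2 of the 40 members were higher and 0 lower, against 3.58% higher and 0.179% lower of 125985 nuclear regions, shares from which nothing is read, since this contrast chose the gene. Both lie between the starts. The region chr4:24210411-24210877, 262.3 kb downstream of the distal start, stood at 1.31 on the log2 scale (standard error 0.53, unadjusted p 0.0138), the highest of the locus, in the authors' deposited table. Its implied means were 9.89 normalized reads with vehicle and 24.5 with octanoate, a ratio of 2.48, and it rests on 159 reads over the 4 libraries. The other, chr4:24070028-24070631, one of the 5 strongest, had 0.66 (standard error 0.33, unadjusted p 0.0429) in the authors' deposited table, with implied means of 31.5 and 49.9. Neither p was adjusted by the authors, who adjusted over regions with a mean of at least 63.8.

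Among the 20 members at or above the median signal of the locus the next highest values belonged to chr4:23945436-23946158, at 0.52 (standard error 0.39), and chr4:23788430-23788957 past the 3' end, at 0.46 (standard error 0.60), in the authors' deposited table. The fifth, chr4:24382363-24382789, had 0.40 (standard error 0.54) in the authors' deposited table. Only the first of these 3 values is larger than its error. At the low end stood chr4:24126698-24127124 with -0.49 (standard error 0.60) and chr4:23822162-23822620 with -0.44 (standard error 0.60) in the authors' deposited table. Next in the authors' deposited table were chr4:23857360-23857918 at -0.38 (standard error 0.49), chr4:24056194-24056742 at -0.36 (standard error 0.45) and chr4:24419263-24419779 at -0.36 (standard error 0.54). Each of these 5 lies within 1 standard error of 0, as do most nuclear regions. The 20 members under the median signal ran from -0.55 to 0.75. The lowest of them, chr4:24128343-24128626, had a standard error of 0.90 in the authors' deposited table and rests on 10, 12, 14 and 15 reads in rising order, and the highest, chr4:24330229-24330508, had 0.74 and rests on 12, 15, 22 and 28. Members close to each other could differ in sign. The region chr4:24070028-24070631 at 0.66 lay 13.3 kb from chr4:24056194-24056742 at -0.36 in the authors' deposited table, a difference that was not tested.

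**Figure D2:**
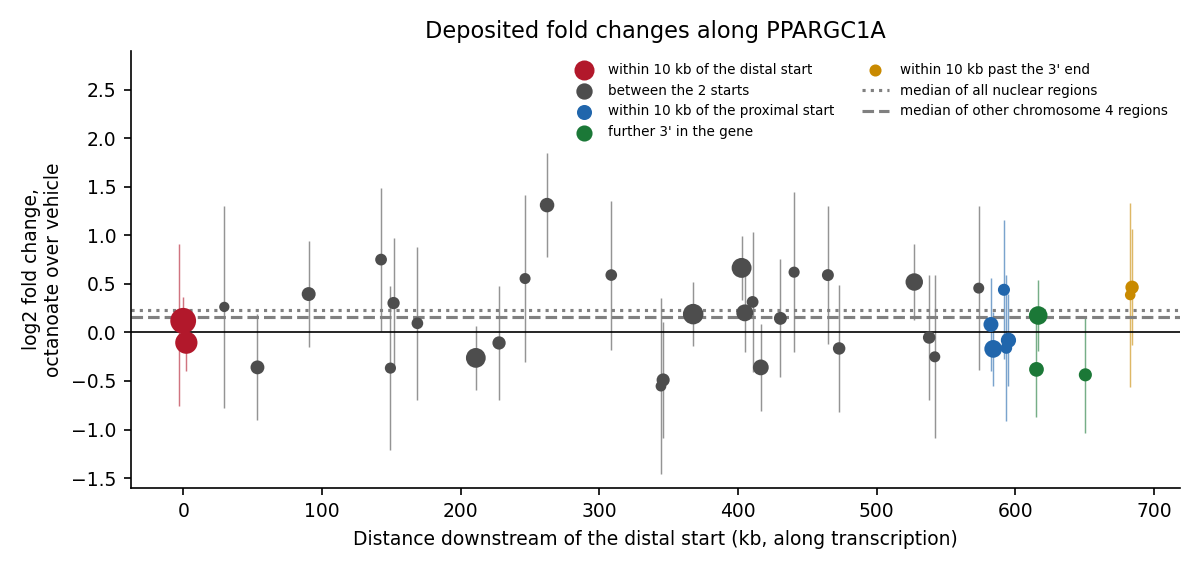
Deposited log2 fold change of octanoate over vehicle (vertical axis, bars are 1 standard error) of the 40 regions by distance downstream of the distal start in kb (horizontal axis), with larger points for higher mean signal. In 36 of the 40 regions the value lies within 1 standard error of 0. So do 94078 of all 125985 nuclear regions and 5857 of the other 7458 on chromosome 4. The highest point is the region at 1.31, 262.3 kb downstream.

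Members varied among themselves less than their errors, as regions did elsewhere. The 40 log2 fold changes had an SD of 0.41, and the median standard error was 0.60. Over all nuclear regions these were 0.52 and 0.61, and over the other chromosome 4 regions 0.54 and 0.64. Measured from the mean weighted by the inverse squared errors, 1 of the 40 lay over 2 standard errors away. At the median error a log2 fold change of 1.18 would be needed for an unadjusted p of 0.05, and at the error of the distal start region 0.47.

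The median of the locus was lower than that of the genome and closer to that of its own chromosome. The median log2 fold change of the 40 regions was 0.13 (middle 50% from -0.17 to 0.44) in the authors' deposited table, against 0.23 over all nuclear regions and 0.16 over the other 7458 regions of chromosome 4. Within 1 Mb outside the extended span the median of 76 regions was 0.16, and within 5 Mb that of 391 regions was 0.12. Below 0 lay 16 of the 40 members, 40%, compared with 34.2% of the other chromosome 4 regions and 27.9% of all nuclear regions. The mean weighted by the inverse squared errors was 0.11 for the locus and 0.15 for the rest of chromosome 4. With implied signals summed over the regions of each group, the log2 ratio was 0.11 for the locus, 0.15 for the rest of chromosome 4 and 0.21 for all nuclear regions.

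Stronger and weaker members differed in their medians, a split with no test. The 20 members at or above the nuclear median of mean signal had a median log2 fold change of 0.00061, with 10 of 20 below 0, where 62993 nuclear regions of that strength had 0.21 with 23.0% below 0. This locus median is the midpoint between 2 members at -0.08 and 0.08. At that strength the locus median was also further from the rest of chromosome 4, with a difference of -0.16 in place of -0.028. The 20 weaker members had a median of 0.28 with 6 below 0, against 0.26 over the weaker nuclear regions. The mean weighted by the inverse squared errors was 0.09 (standard error 0.09) for the stronger members and 0.20 (standard error 0.17) for the weaker ones. These errors treat regions as independent. Over nuclear regions of the same strengths the weighted means were 0.21 and 0.23. By position, medians were 0.20 over the 27 regions between the starts, 0.07 over the 3 at the distal start, -0.38 over the 3 further 3' in the gene and 0.43 over the 2 past its end. The weighted mean was -0.10 (standard error 0.26) over the 3 further 3' and 0.44 (standard error 0.51) over the 2 past the end. Each value in these last 2 groups lay within 1 standard error of 0.

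**Figure D3:**
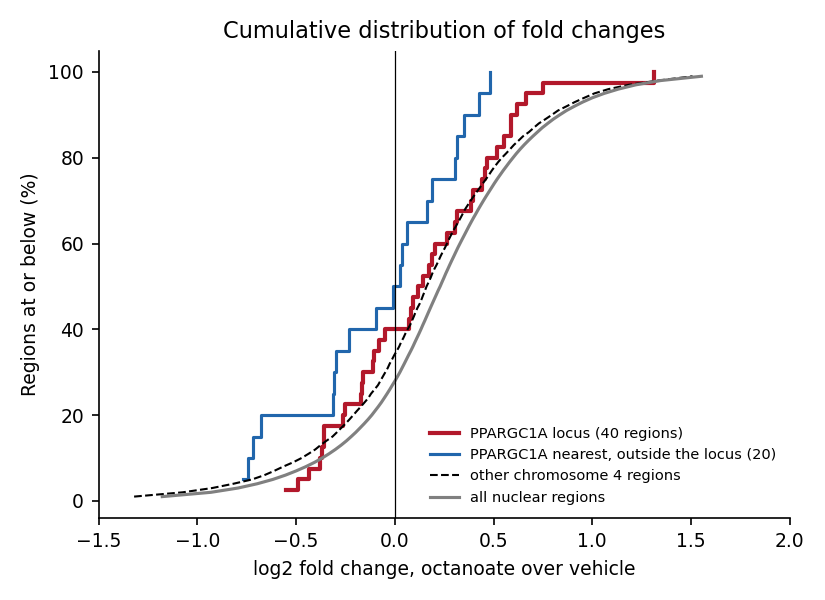
Share of regions in percent (vertical axis) with a log2 fold change at or below the value on the horizontal axis, for the 40 locus regions, the 20 regions nearest PPARGC1A outside the locus, the other regions of chromosome 4 and all nuclear regions. At 0 the locus curve stands at 40%, the chromosome 4 curve at 34.2% and the nuclear curve at 27.9%.

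The 20 regions outside the extended span reach far into the gene-poor stretch past the 3' end, where the next protein-coding gene lies 1276 kb away. On the 5' side the next one lies 54.6 kb away, and 1 of the 20 regions lay there. The 19 regions on the 3' side had a median log2 fold change of -0.0081, with 10 of 19 below 0, in the authors' deposited table. Their strongest was chr4:23333588-23334633, 457.4 kb past the gene, with a mean of 68.1 and a value of 0.06 (standard error 0.26) in the authors' deposited table. Next came chr4:23373146-23373808 at 0.32 (standard error 0.27) and chr4:23728091-23728964 at -0.09 (standard error 0.29) in the authors' deposited table. At the limits of the rule, the outermost member on the 3' side lay 3.06 kb from the gene with 0.46 and the first region outside 44.5 kb from it with -0.72 in the authors' deposited table. On the 5' side the same pair lay at 3.33 kb with 0.07 and at 15.8 kb with 0.43 in the authors' deposited table.

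Over all 60 regions PPARGC1A had a median log2 fold change of 0.08, with 26 below 0. Among the 801 protein-coding genes with at least 30 regions it was number 115 from the lowest, so 14.2% of them had a lower median. The order counts the nearest regions outside a gene for every gene. For PPARGC1A the 19 on the 3' side had a median of -0.0081, while the 40 members alone had 0.13. At number 203 of the order COL8A1 had 0.13, so the place of PPARGC1A depends on its regions outside the extended span. Gene medians ran from -0.20 to 0.68, with the middle 50% between 0.13 and 0.33. On chromosome 4 PPARGC1A was number 11 of 53, whose gene medians had a median of 0.16, and among 139 genes of 500 to 900 kb it was number 10. The genes closest to it in this order were PAM (0.08), IGFBP7 (0.08) and ATXN7L3B (0.08) just below and LOC112267897 (0.08), CHD1 (0.08) and MEF2C (0.08) just above. These 6 were picked as its neighbours in the order, so their small difference from PPARGC1A was fixed by the choice. The SD over regions was 0.42 for PPARGC1A and 0.44 to 0.60 for the 6. The likeness is in 1 number over 4 libraries.

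**Figure D4:**
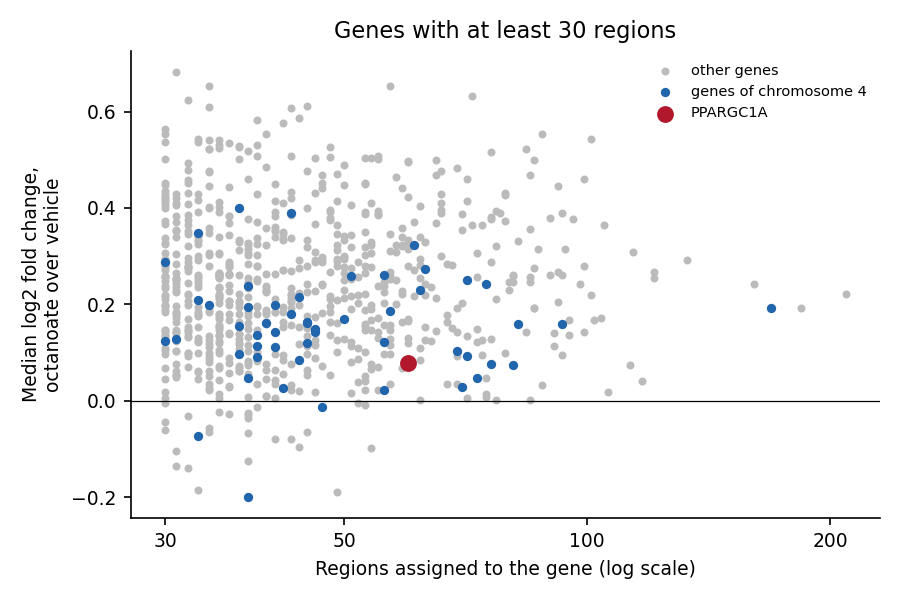
Median log2 fold change of octanoate over vehicle (vertical axis) by number of regions (horizontal axis, log scale) for the 801 genes with at least 30 regions, with chromosome 4 genes in blue and PPARGC1A in red. PPARGC1A lies at 60 regions and 0.08, in the lower part of the cloud, with 114 genes below it.

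The paralogs of PPARGC1A had fewer regions. PPARGC1B, which encodes the related coactivator PGC-1beta, had 12, with a median log2 fold change of 0.33 and 1 of 12 below 0. Its strongest region, chr5:149729849-149732541 at the 5' end of the gene span, had a mean of 119 and a value of 0.18 (standard error 0.19, adjusted p 0.702 by DESeq2) in the authors' deposited table. PPRC1, the third family member, had 2 regions, and the one over its listed start, chr10:102132469-102134133, had a mean of 87.0 and a value of 0.14 (standard error 0.22, adjusted p 0.807 by DESeq2) in the authors' deposited table. The other PPRC1 region, chr10:102131765-102131964, had 0.66 (standard error 1.13) on a mean of 3.98 in the authors' deposited table. No region overlapped the start that the promoter table lists for PPARGC1B. The regions over the distal PPARGC1A start and the PPRC1 start, at 0.12 and 0.14, each lay within 1 standard error of 0. For the PGC-1 family together the median over 74 regions was 0.14, and without PPARGC1A it was 0.33.

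Across the wider pathway no region that the authors adjusted p over had an adjusted p under 0.05. The 7 lists held 77 genes, 73 of them with 709 regions, and 0 of the 79 regions adjusted over had an adjusted p under 0.05, against the 1.02% above. At an unadjusted p under 0.05, 25 of the 709 (3.53%) were higher and 3 (0.423%) lower, beside 3.58% and 0.179% of all nuclear regions. The lowest adjusted p was 0.141 (DESeq2).

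Of the transcription factors that PGC-1alpha binds, 15 of 16 had regions assigned to them, 232 in all with a median of 0.18 and 65.5% above 0, beside 72.1% of all nuclear regions. The exception, ESRRA, had an open region at its listed start that was assigned to CATSPERZ, whose span it also overlaps. Of the 232 regions, 14 (6.03%) were higher and 2 (0.862%) lower at an unadjusted p under 0.05, beside 3.58% and 0.179% of all nuclear regions. RXRA, the partner receptor of PPARs, had 4 of these among 14 regions, all 14 above 0 with a median of 0.52, whereas both regions of GABPB1, a subunit of the nuclear respiratory factor GABP, were below 0 with a median of -0.11. HNF4A, a nuclear receptor of liver, had 3 among 6 regions, 6 of 6 above 0, and a median of 0.90. PPARG, the fat cell receptor for which the coactivator was named, had 1 among 17 regions (log2 fold change 0.99, standard error 0.47, in the authors' deposited table). NR3C1, the glucocorticoid receptor, had 2 among 23 regions, both higher, 1 of them 92.3 kb from the gene. ESRRG and THRB, the estrogen-related and thyroid hormone receptors, each had 2 regions higher and 1 lower, among 63 and 54.

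Upstream regulators had 228 regions with a median of 0.11, of which 4 (1.75%) were higher and 1 (0.439%) lower at an unadjusted p under 0.05, beside 3.58% and 0.179% of all nuclear regions. MITF had 40 regions with a median of 0.01 and 20 below 0, and 1 of them, 30.6 kb from the gene, had 0.42 (standard error 0.16, adjusted p 0.178 by DESeq2) in the authors' deposited table. MEF2A and MEF2C, muscle enhancer factors, had 2 and 1 higher regions, the MEF2C one 680.1 kb from the gene, and CAMK4, a calcium-dependent kinase, had the lower one. Coregulators and modifiers had 80 regions with a median of 0.29 and 1 higher (1.25%), 54.9 kb from the ubiquitin ligase gene FBXW7. SIRT1, the deacetylase of PGC-1alpha, had 1 region in all.

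Targets for mitochondrial biogenesis and respiration had 28 regions with a median of 0.23 and 1 higher (3.57%) at an unadjusted p under 0.05, beside 3.58% of all nuclear regions. This was the region at TFB2M, a mitochondrial transcription factor, with a mean of 314 and a value of 0.35 (standard error 0.13, adjusted p 0.141 by DESeq2) in the authors' deposited table. Fuel and thermogenic targets had 34 regions with a median of 0.14 and 1 higher (2.94%), 0.042 kb from PCK1 of gluconeogenesis, on a mean of 5.29. Antioxidant targets had 33 regions with a median of 0.38, 4 of them (12.1%) below 0, beside 27.9% of all nuclear regions. SOD2, the mitochondrial superoxide dismutase, held 16 of the 33 with 0 below 0, while 2 of 5 at CAT, the catalase gene, and 2 of 7 at TXN2, the mitochondrial thioredoxin, were below 0. At an unadjusted p under 0.05, 2 of the 33 (6.06%) were higher, within SOD2 and 10.9 kb from PRDX3. All nuclear regions had a median of 0.23, so list medians lay on both sides of it.

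**Figure D5:**
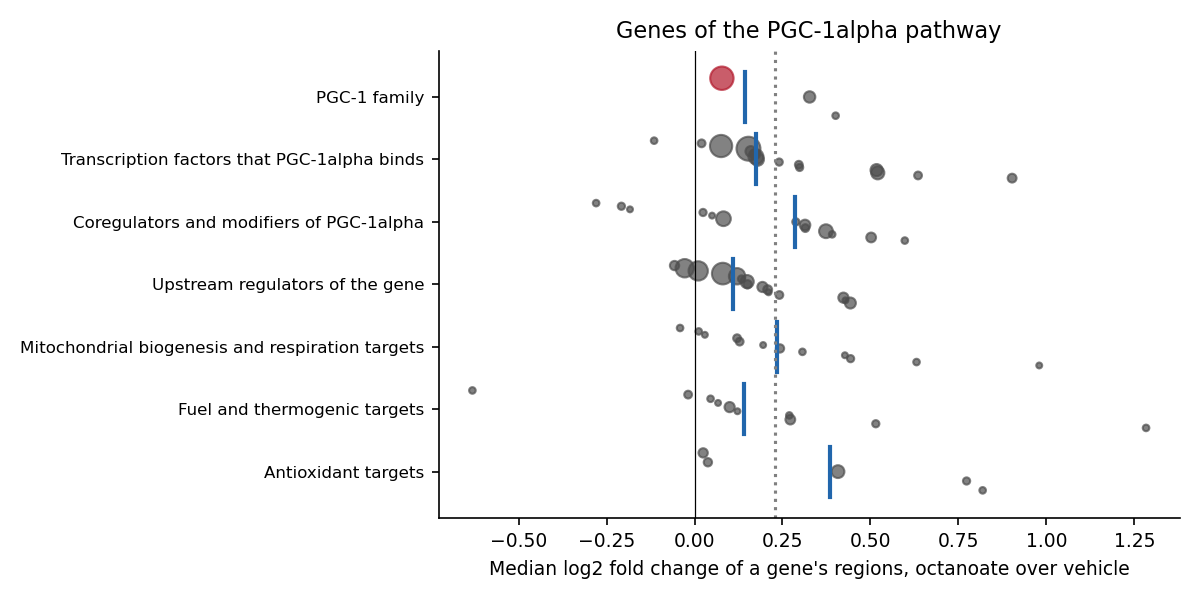
Median log2 fold change of octanoate over vehicle over the regions of each gene (horizontal axis), by list (vertical axis), with larger points for more regions, blue bars for the median over all regions of a list and a dotted line at the median of all nuclear regions, 0.23. PPARGC1A, in red, lies at 0.08 over 60 regions, left of PPARGC1B at 0.33 over 12 and PPRC1 at 0.40 over 2. The 60 include the 20 outside the extended span.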

How the data were processed

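ATAC-seq libraries of 4 A375 samples, 2 per group from their titles, were compared by the authors in 1 deposited table with 0 columns per library. Per the submitters' processing notes, the tools were Trim Galore, cutadapt, FastQC, Bowtie2, Picard, MACS2, featureCounts, DESeq2 and bedtools 2.29.1, with build hg38; their roles, filters and any Tn5 shift are not given in the sources used here. Per the file headers, the deposited signal is a mean normalized read count, the log2 fold change is octanoate over vehicle with its standard error, and the deposited score is the Wald statistic, with its p-value and adjusted p-value. The adjusted p-value equals Benjamini-Hochberg over 11185 regions with a mean of at least 63.8; the other 114801, listed as 1, were treated as not adjusted.

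Computed here, with Python 3.11.15 and pandas 2.3.3, were overlaps with RefSeq GRCh38.p14 (20056 protein-coding genes; the shortest overlapped gene, else the nearest), medians, means weighted by inverse squared errors, and implied group means from each mean and fold change. Implied means assume equal weights of the 4 libraries. Read recovery and gene assignment were tested on simulated data. No test was made, since the table holds no value per library and this contrast chose the gene.

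The locus and lists were chosen with earlier results of these data known. Named were the regions nearest the starts, the 5 strongest, the 5 highest and 5 lowest fold changes at or above the locus median signal, those with an unadjusted p under 0.05, and those adjusted over; for genes, the 3 next above and below in order; for lists, genes with a region at an unadjusted p under 0.05 and lists of few genes. Other regions and genes named were chosen after their values were seen. RefSeq gave promoter windows for 1 of 1 gene of the locus.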

Additional observations from a re-analysis of the deposited data

How the results depend on the processing

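The locus held 37 regions with no extension and 42 with 50 kb. Its median log2 fold change of 0.13 was judged against 0.080, the error of the weighted mean, which treats regions as independent. It moved to 0.00061 in members at or above the nuclear median signal, to -0.097 after centring on the nuclear median and to -0.054 after centring on the median of regions adjusted over, which subtract constants larger than it; for the first the cause was not tested. The other alternatives gave 0.078 (nearest gene) to 0.17 (without the distal start, chosen after seeing the data), and leaving out each region in turn (also chosen later) gave 0.12 to 0.15. The difference from the rest of chromosome 4 was -0.028; it moved to -0.16 at or above the nuclear median signal (cause not tested) and was 0.0096 against regions within 5 Mb and -0.097 against all other nuclear regions. The share below 0 of 40% moved to 60% after centring on the nuclear median. The share of genes with a lower median was 12.0% to 15.7% in place of 14.2%, with the regions outside the extended span counted in each setting. An adjusted p under 0.1 gave 0 members and an unadjusted p under 0.05 gave 2. No paired analysis was possible because values of single libraries are not in the file used here; leaving out a replicate, edgeR and DESeq2 were not run for that reason. Depth limits the weaker members, of which 19 rest on under 100 reads.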
